A study of Mus musculus with 2 samples.

Results

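The 7 genes Cx3cr1, Ccr1, Ccr2, Ccr6, Cxcr4, Cxcr2 and Ccrl2 encode chemokine receptors or their close relatives, and were taken by symbol from the 55357 genes listed for each library. All 7 were listed. Their transcripts were measured in single cells of the mouse cerebral cortex by droplet RNA sequencing (10x Genomics 3′ chemistry, v2), in which each unique molecular identifier (UMI) stands for 1 captured RNA molecule. The cells came from mice aged 8 weeks and had been sorted as positive for both CD45 and CD11b, surface proteins of microglia and other myeloid cells. There were 2 groups, Moesin Knockout and Wild-type, with 1 library each and with the cortices of 5 to 6 mice pooled per library. The knockout mice lacked moesin (gene Msn), an actin-linking protein of the membrane, and were of the C57BL/6 strain. The sources used here do not state which part of Msn was removed and in which cells, nor the sex of either group, nor the strain of wild-type mice. Because a genotype had 1 library only, nothing could be tested against a spread between replicates, and no test was made. All intervals below are exact 95% intervals, and they cover counting error only.

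Chemokine receptors are membrane-spanning proteins that couple to inhibitory G proteins and steer cells along gradients of small secreted proteins, the chemokines. Cx3cr1 binds the neuronal ligand Cx3cl1 (fractalkine) and is used as a label of microglia. Ccr2 draws classical monocytes out of the bone marrow toward Ccl2 and its relatives, while Cxcr4 holds cells at sources of Cxcl12. Ccr1 and Cxcr2 guide neutrophils and other myeloid cells to inflammatory chemokines, and Ccr6 is the receptor of Ccl20. Ccrl2 is an atypical member that binds chemerin and presents it to neighbouring cells without signalling through G proteins itself.

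The stretch around the DRY motif is shown because it separates the atypical member from the others: this motif, at the inner end of the third membrane-spanning helix, takes part in coupling to G proteins. The lines give the coding strand, read from the GENCODE transcript sequences, and the GENCODE annotation gave the positions on GRCm39. The 9 bases at the motif's position are in capitals, and the next 12 bases are in lower case.
Cx3cr1: GACCGGTACcttgccatcgtc
Ccr1: GACAGATACctggccattgtc
Ccr2: GATAGGTACttggctattgtt
Ccr6: GACCGGTACattgccatcgtc
Cxcr4: GACCGGTACctcgctattgtc
Cxcr2: GACCGCTACctggccattgta
Ccrl2: CAAGGATACagggtgttttcc
The stretches lie at chr9:119881002-119881022 on the minus strand for Cx3cr1, chr9:123764121-123764141 on the minus strand for Ccr1 and chr9:123906169-123906189 on the plus strand for Ccr2. Those of Ccr6 and Cxcr4 lie at chr17:8475196-8475216 on the plus strand and chr1:128517237-128517257 on the minus strand. The stretch of Cxcr2 lies at chr1:74197931-74197951 on the plus strand, and that of Ccrl2 at chr9:110885083-110885103 on the minus strand. All are coding sequence of protein-coding genes. In 6 genes the capitals encode the DRY motif, and in Ccrl2 they do not. Of the 21 bases, Ccr6 shared 20 with Cx3cr1, Cxcr4 shared 18, Ccr1 and Cxcr2 shared 17 each, Ccr2 shared 14 and Ccrl2 shared 8. Cx3cr1 overlaps the noncoding gene Gm33858 and Ccr6 overlaps Gm33799, both on the opposite strand.

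The knockout library held 9038 barcodes and 67575835 UMIs, and the wild-type library 5842 barcodes and 68576464 UMIs. After cells under 500 genes or above 10% mitochondrial UMIs were left out, 7573 knockout cells (median 5455 UMIs) and 5577 wild-type cells (median 7178 UMIs) were kept. The libraries shared 13 barcodes. Cells were placed in a class, called a gate here, when both of 2 marker genes had at least 1 UMI: P2ry12 and Tmem119 for microglia, Ace and Treml4 for patrolling monocytes, Ly6c2 and Chil3 for classical monocytes, Mrc1 and Pf4 for border macrophages, Ncr1 and Nkg7 for natural killer (NK) cells. The microglia gate held 4686 knockout cells and 5033 wild-type cells, which is 61.9% of kept cells in the knockout library and 90.2% in the wild-type library. The patrolling monocyte gate held 396 knockout and 27 wild-type cells, the classical monocyte gate 71 and 16, the border macrophage gate 135 and 25, and the NK gate 62 and 0. S100a9 and Retnlg gated 25 knockout and 3 wild-type neutrophils among the cells that completed no other gate. Every gene of the check list of each class, which the gates had not used, was detected in the gate of that class in both libraries, except that Ly6g had 0 UMIs in the 3 wild-type neutrophils and that there were no wild-type NK, B or T cells. Detection alone did not tell the classes apart, since knockout microglia also had UMIs of every gene on the lists of the other immune cells. The border macrophage gate's own list summed to 3842 CPM (UMIs of a gene per 1000000 UMIs summed over the gate) in knockout and 4062 CPM in wild-type cells. Microglial markers there summed to 4566 and 2756 CPM, and dendritic cell markers, including MHC class II genes, to 9229 and 13044 CPM. The dendritic cell sum was thus above the gate's own sum in both libraries, and the microglial sum was above it in the knockout library. In the patrolling monocyte gate its own list summed to 3980 CPM in knockout and 3958 CPM in wild-type cells, and classical monocyte markers to 3272 and 3491 CPM. Another 1070 knockout cells (14.1%) and 243 wild-type cells (4.36%) completed more than 1 gate and are called mixed. They had medians of 14787.5 and 22576 UMIs, they may hold doublets, and they were left out of all gates. Of them, 722 knockout and 200 wild-type cells completed the microglia and border macrophage gates, more than the 135 and 25 kept as border macrophages. The microglia and patrolling monocyte gates were both complete in 321 and 30 cells, against 396 and 27 kept. Border macrophage values below therefore cover only the smaller part of the cells with Mrc1 and Pf4 UMIs. Msn itself had 20.7 CPM in knockout and 321 CPM in wild-type cells of the microglia gate, and 58.0 and 1042 CPM in the patrolling monocyte gate, so it was lower in the library labelled knockout.

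Each receptor had its own distribution over the gates. Cx3cr1 was highest in microglia, as was Ccr6 in the knockout library, Ccr2 was highest in classical monocytes, Cxcr2 had by far its highest level in neutrophils, Ccr1 was highest in neutrophils with a second site in border macrophages, Cxcr4 was highest in neutrophils and patrolling monocytes, and Ccrl2 was present in all 6 gates. These orders were read from levels of 1 gene at a time, as CPM of UMIs summed over the cells of a gate. Gates were set apart only where their intervals did not overlap. In the wild-type library the Ccr6 interval of microglia (19.0 to 21.3 CPM) lay within that of border macrophages (0.215 to 47.3 CPM, 1 UMI), so microglia were not set apart there.

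**Figure D1:**
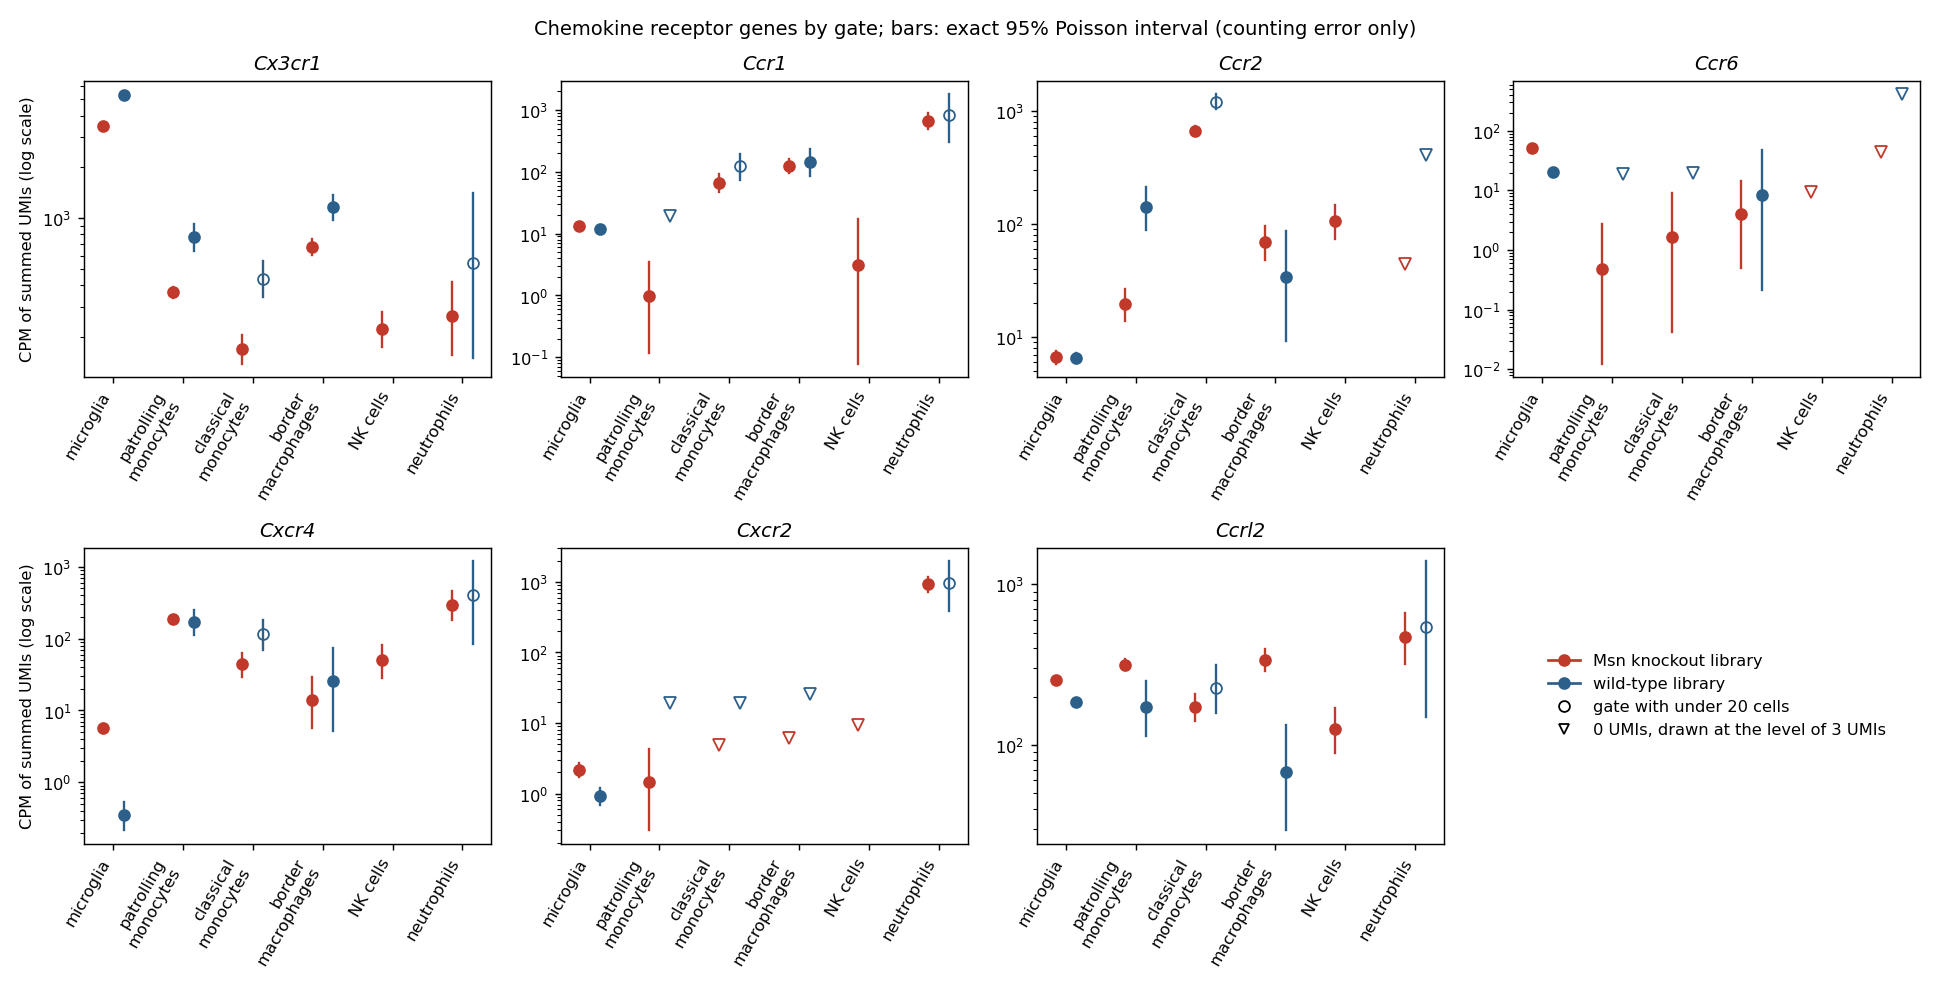
Level of each receptor gene (CPM of summed UMIs, log scale) in 6 gates, with the Msn knockout library left of the wild-type library; bars are exact 95% Poisson intervals, open circles are gates under 20 cells and triangles mark 0 UMIs at the level of 3 UMIs. The highest Cx3cr1 level is in microglia (3473 and 5313 CPM in knockout and wild-type cells), that of Ccr2 in classical monocytes (668 and 1212 CPM) and Cxcr2 in neutrophils (924 and 954 CPM).

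In the ratio of knockout over wild type, each gate's CPM values were set relative to the median log2 ratio of its measured genes, those that reached 10 CPM in either library. That median was -0.30 in microglia, -0.33 in patrolling monocytes and -0.16 in border macrophages. A gene was called higher or lower in the knockout library by size alone, at 1.5-fold (0.58 on the log2 scale). In the microglia gate 4 of the 7 receptors were measured: Ccr6 and Ccrl2 were called higher, and Cx3cr1 and Ccr1 were within the limit. Over all 8722 measured genes there, 15.3% were called higher and 12.6% lower, 27.9% in all. In patrolling monocytes 4 were measured, with Ccrl2 higher, Cx3cr1 and Ccr2 lower and Cxcr4 within the limit, against a background of 26.0% higher and 26.5% lower (52.4% in all, of 7926 genes). In border macrophages 5 were measured, with Ccr2 and Ccrl2 higher, Cx3cr1 and Cxcr4 lower and Ccr1 within, against 29.1% higher and 31.7% lower (60.8% in all, of 8649 genes). The shares of all genes called in these smaller gates were so high that a call of a single receptor there says little beyond its value. The median relative log2 ratio of the measured receptors was 0.62 in microglia, -0.15 in patrolling monocytes and -0.04 in border macrophages, against 0 for all measured genes by construction.

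**Figure D2:**
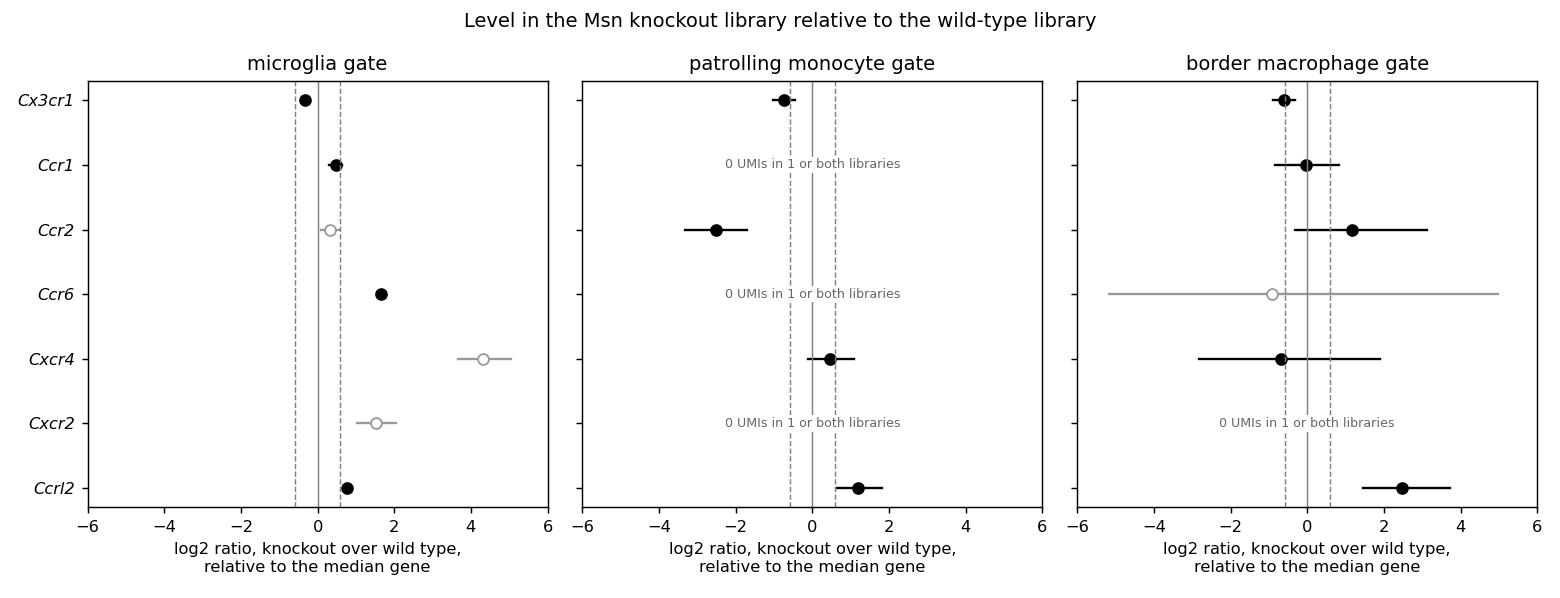
Log2 ratio of knockout over wild type for each receptor gene in 3 gates, relative to the median measured gene; bars are exact 95% intervals of counting error, dashed lines mark 1.5-fold, and open grey points are genes under 10 CPM in both libraries. Ccrl2 lies to the right of the upper dashed line in all 3 gates, at 0.77, 1.19 and 2.48.

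Cx3cr1, the fractalkine receptor, was highest in microglia in both libraries. It had 3473 CPM (3454 to 3492) in knockout microglia and 5313 CPM (5294 to 5331) in wild-type microglia. The level was 1.53-fold lower in the knockout library on the CPM scale, and the relative log2 ratio was -0.32 (-0.33 to -0.31), which is within the 1.5-fold limit. After every cell had been thinned to 2000 UMIs, 98.8% of knockout and 99.8% of wild-type microglia still had a Cx3cr1 UMI, against 98.0% and 99.8% of cells unthinned. The transcript was thus found in nearly every cell of the gate in both genotypes, with a lower mean in the knockout library. The same order held in each range of cell depth. Cells of 1000 to under 5000 UMIs had 3275 CPM in the knockout and 4881 CPM in the wild-type library, those of 5000 to under 15000 UMIs had 3277 and 4965 CPM, and those of 15000 UMIs or more had 3849 and 5593 CPM.

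Border macrophages came next in the order, above patrolling monocytes, in both libraries. In border macrophages Cx3cr1 had 677 CPM (607 to 754) in knockout and 1153 CPM (968 to 1364) in wild-type cells, a relative log2 ratio of -0.61 (-0.90 to -0.31), just past the limit. Microglial markers in this gate corresponded to 754 CPM of Cx3cr1 in knockout and 765 CPM in wild-type cells, if all of those markers came with microglial RNA in the proportions of the microglia gate. The whole knockout level and most of the wild-type level could therefore be matched by that amount, and its part in the difference was not tested.

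In patrolling monocytes, which depend on Cx3cr1 for survival in mice, Cx3cr1 had 364 CPM (338 to 391) in knockout and 767 CPM (636 to 918) in wild-type cells. The relative log2 ratio was -0.75 (-1.03 to -0.46). The corresponding microglial amounts were 122 and 277 CPM, so both levels exceeded what the markers carried. At 2000 UMIs per cell, 205 of 388 knockout cells (52.8%, 47.7 to 57.9) and 21 of 26 wild-type cells (80.8%, 60.6 to 93.4) had a Cx3cr1 UMI, at median depths of 4951.5 and 5580 UMIs. These intervals are over cells of 1 library per genotype. In neutrophils, which should lack the gene, 6 of 18 knockout and 2 of 3 wild-type cells had a Cx3cr1 UMI at 2000 UMIs. The wild-type values of patrolling monocytes rest on 27 cells, and with mixed cells counted in the relative log2 ratio was -0.12, within the limit.

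Cx3cr1 was lower still in classical monocytes, with 170 CPM (139 to 205) in 71 knockout cells and 438 CPM (340 to 556) in 16 wild-type cells. Knockout NK cells had 222 CPM (173 to 280). The thinned shares there were 28.6% of knockout and 43.75% of wild-type classical monocytes and 32.3% of knockout NK cells. For comparison, 6 of 18 knockout neutrophils and 5 of 15 knockout B cells (both 33.3%), cells that should lack the gene, had a Cx3cr1 UMI. Their median depths were 2412 and 4894 UMIs before thinning, and the source of these UMIs was not tested. The same neutrophils and B cells also carried more microglial markers, with sums of 1599 and 1362 CPM, against 559 CPM in knockout classical monocytes and 722 CPM in knockout NK cells. The corresponding microglial amounts of Cx3cr1 were 92.3 CPM in knockout classical monocytes and 119 CPM in knockout NK cells, below the levels measured there. That of knockout neutrophils, 264 CPM, equalled their level, and that of knockout B cells, 225 CPM, exceeded their level of 105 CPM. Shares and levels thus gave no common order, and none is read from them.

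Ccr2, the receptor by which classical monocytes answer Ccl2, was highest in the classical monocyte gate. It had 668 CPM (605 to 736) in 61 of 71 knockout cells and 1212 CPM (1045 to 1398) in 15 of 16 wild-type cells. No ratio was computed, because the wild-type gate held under 20 cells. The 8 knockout dendritic cells (gated on Cd209a and Flt3) had 553 CPM (400 to 745), which could not be set apart from knockout classical monocytes. The 3 wild-type dendritic cells had 413 CPM (220 to 707), an interval below that of wild-type classical monocytes. Knockout NK cells had 106 CPM (73.6 to 148). Neutrophils had 0 UMIs, which allows up to 44.0 CPM in the knockout and 409 CPM in the wild-type library.

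Patrolling monocytes carried little Ccr2 in the knockout library. The level was 19.5 CPM (40 UMIs in 22 of 396 cells) in knockout and 141 CPM (22 UMIs in 5 of 27 cells) in wild-type cells, a relative log2 ratio of -2.53 (-3.31 to -1.71). A single wild-type cell held 9 of the 22 UMIs, so this value rests on very few cells. The sum of classical monocyte markers was close in the 2 libraries, at 3272 CPM in knockout and 3491 CPM in wild-type patrolling monocytes, while that of dendritic cell markers was 1508 and 3050 CPM. The part of other cells in the difference was not tested. In border macrophages the direction was the opposite: 69.0 CPM (34 UMIs in 9 of 135 cells) in knockout and 33.9 CPM (4 UMIs in 2 of 25 cells) in wild-type cells, a relative log2 ratio of 1.18 whose interval (-0.31 to 3.14) includes 0. Microglia had 6.61 and 6.52 CPM, under the 10 CPM limit in both libraries. Without cells that had a UMI of another gate's genes, the level in microglia was 3.09 CPM in knockout and 4.67 CPM in wild-type cells, and in the cells with such a UMI 10.9 and 9.35 CPM.

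Ccr2 and Cx3cr1 mark the classical and the patrolling monocyte in turn, and the UMIs of thinned cells followed that division in part. Of 70 knockout classical monocytes, 33 had Ccr2 only, 10 had Cx3cr1 only, 10 had both and 17 had neither. Of 16 wild-type classical monocytes, 8 had Ccr2 only, 2 had Cx3cr1 only, 5 had both and 1 had neither. Of 388 knockout patrolling monocytes, 7 had Ccr2 only, 201 had Cx3cr1 only, 4 had both and 176 had neither. Of 26 wild-type patrolling monocytes, 1 had Ccr2 only, 20 had Cx3cr1 only, 1 had both and 4 had neither. Ccr2 alone was therefore the most frequent pattern in classical monocytes of both libraries, and Cx3cr1 alone in patrolling monocytes. Cx3cr1 alone did not single out patrolling monocytes. It was also more frequent than Ccr2 alone in knockout border macrophages (56 and 2 of 94), NK cells (20 and 7 of 62) and neutrophils (6 and 0 of 18). None of the 62 knockout NK cells had UMIs of both, which allows up to 4.84% of cells with such UMIs at this depth.

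**Figure D3:**
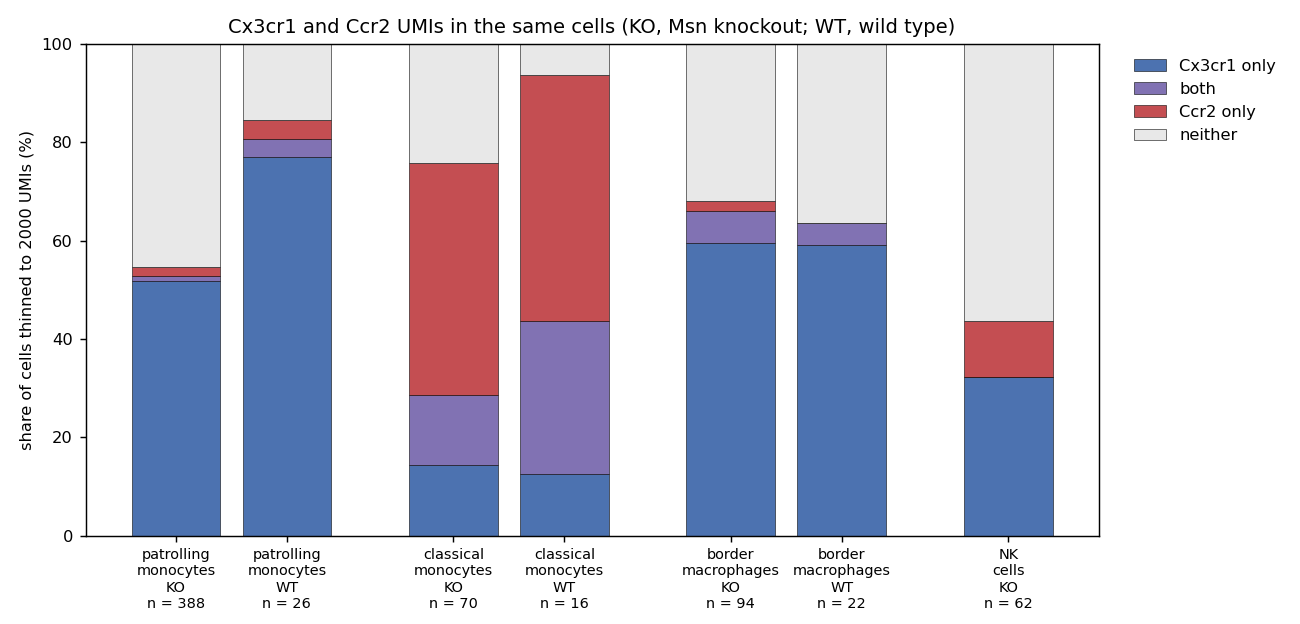
Share of cells (%), thinned to 2000 UMIs, with UMIs of Cx3cr1 only, both genes, Ccr2 only or neither, for 4 gates, with the Msn knockout library left of the wild-type library; n is the number of thinned cells. Ccr2 only is the largest class among classical monocytes (33 of 70 knockout and 8 of 16 wild-type cells), and Cx3cr1 only is the largest among patrolling monocytes (201 of 388 and 20 of 26).

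Ccr1, a receptor of Ccl3 and Ccl5 on myeloid cells, was highest in neutrophils. It had 675 CPM (494 to 900, 46 UMIs in 19 of 25 cells) in knockout and 818 CPM (300 to 1779, 6 UMIs in 3 of 3 cells) in wild-type neutrophils. Border macrophages had 126 CPM (96.4 to 161) in knockout and 144 CPM (84.0 to 231) in wild-type cells. Their relative log2 ratio was -0.04 (-0.83 to 0.83), an interval that allows a difference beyond 1.5-fold in either direction. Classical monocytes had 66.8 CPM (48.0 to 90.7) in knockout and 122 CPM (73.7 to 191) in wild-type cells, so they lay below border macrophages in the knockout library and could not be set apart from them in the wild-type library. The 2 monocyte classes stood far apart in Ccr1. Patrolling monocytes had 2 UMIs over 396 knockout cells (a Poisson interval of 0.118 to 3.52 CPM) and 0 UMIs over 27 wild-type cells, which allows up to 19.2 CPM. In the knockout library their interval lay wholly below that of classical monocytes. Microglia had 13.2 CPM (12.1 to 14.5) in the knockout and 11.7 CPM (10.9 to 12.6) in the wild-type library, a relative log2 ratio of 0.47 (0.30 to 0.64). That value is within the limit, but its interval reaches past it, and 4 of 12 alternatives put the ratio past the limit (range 0.18 to 0.96). A Ccr1 UMI was found in 2.44% of knockout and 1.82% of wild-type microglia at 2000 UMIs, against 0 of 388 knockout patrolling monocytes, which allows up to 0.773% of cells with a UMI.

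Cxcr2, the neutrophil receptor of Cxcl1 and Cxcl2, had its highest level in neutrophils. There it had 924 CPM (710 to 1182, 63 UMIs in 22 of 25 cells) in knockout and 954 CPM (383 to 1965, 7 UMIs in 3 of 3 cells) in wild-type cells. Classical monocytes, border macrophages and NK cells had 0 UMIs of Cxcr2 in every library that held them, which allows up to 4.89 and 19.3 CPM in knockout and wild-type classical monocytes. Patrolling monocytes had 3 UMIs in the knockout and 0 in the wild-type library. Microglia had 82 UMIs in 37 knockout cells (2.18 CPM) and 56 UMIs in 40 wild-type cells (0.926 CPM). When cells with a UMI of another gate's genes were left out, these values became 0.434 CPM (9 UMIs) in knockout and 0.792 CPM (29 UMIs) in wild-type microglia, so the order of the 2 libraries turned round. Most of the Cxcr2 UMIs of knockout microglia thus lay in cells that also held a gene of another gate. Because neutrophils were few, they held 28.4% of all Cxcr2 UMIs in the knockout and 8.33% in the wild-type library, against 36.9% and 66.7% in the microglia gate. Of the UMIs of all genes, neutrophils held 0.102% and 0.0107%, and the microglia gate 56.6% and 88.4%. The Cxcr2 share was thus above this background in neutrophils and below it in microglia.

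Cxcr4, the receptor of Cxcl12, was highest in neutrophils and patrolling monocytes, with intervals that overlapped in both libraries and, in the wild-type library, also overlapped that of classical monocytes. Patrolling monocytes had 189 CPM (170 to 208) in the knockout and 173 CPM (114 to 251) in the wild-type library, a relative log2 ratio of 0.45 (-0.11 to 1.07). A Cxcr4 UMI was present in 122 of 388 knockout cells (31.4%) and 9 of 26 wild-type cells (34.6%) at 2000 UMIs. The level and the share of cells were therefore close in the patrolling monocytes of the 2 libraries, while the interval of the ratio reached past the 1.5-fold limit. Neutrophils had 293 CPM (179 to 453, 20 UMIs) in the knockout and 409 CPM (84.3 to 1195, 3 UMIs in 1 cell) in the wild-type library. Classical monocytes had 44.0 CPM (29.0 to 64.03) in knockout and 116 CPM (68.8 to 183) in wild-type cells, and knockout NK cells had 16 UMIs in 14 of 62 cells (28.6 to 81.2 CPM). Border macrophages had 14.2 CPM from 7 UMIs and 25.4 CPM from 3 UMIs, a relative log2 ratio of -0.68 (-2.82 to 1.90) that cannot give a direction.

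In microglia Cxcr4 stayed under the 10 CPM limit in both libraries, yet the counts were far apart. Knockout microglia had 213 UMIs in 160 of 4686 cells, or 5.66 CPM (4.92 to 6.47), and wild-type microglia had 21 UMIs in 19 of 5033 cells, or 0.347 CPM (0.215 to 0.531). The ratio of CPM values was 16.3. At 2000 UMIs the shares were 1.11% (0.817 to 1.46) of knockout and 0.102% (0.0332 to 0.238) of wild-type cells. In cells with a UMI of another gate's genes the levels were 9.63 and 0.545 CPM, and in the rest 2.41 CPM (50 UMIs) in knockout and 0.218 CPM (8 UMIs) in wild-type cells. The excess was therefore present in both subsets, and larger in absolute terms in the first. The summed patrolling monocyte markers of the microglia gate moved in the same direction, at 122 CPM in knockout and 56.0 CPM in wild-type cells with all 6 genes detected in each. So did the classical monocyte markers, at 81.1 and 11.3 CPM, and the NK markers, at 16.5 and 0.480 CPM, where Klre1 and Klra8 had 0 UMIs in wild-type cells. Their part in the Cxcr4 counts was not tested.

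Ccr6, the receptor of Ccl20 and otherwise known from lymphocytes, had 65.1% of its knockout and 90.0% of its wild-type UMIs in the microglia gate. That gate held 56.6% and 88.4% of the UMIs of all genes, so the wild-type share was near that background. By level, Ccr6 was as follows. It had 51.8 CPM (49.6 to 54.2, 1952 UMIs in 1029 cells) in knockout microglia and 20.1 CPM (19.0 to 21.3, 1217 UMIs in 728 cells) in wild-type microglia. The knockout level was 2.58-fold higher in CPM, and the relative log2 ratio was 1.66 (1.56 to 1.77). A Ccr6 UMI was found in 9.15% of knockout microglia (8.31 to 10.0) and 3.57% of wild-type microglia (3.07 to 4.13) at 2000 UMIs, and in 21.96% and 14.5% unthinned, at median depths of 5637 and 7270 UMIs. Knockout microglia thus carried the transcript in a larger share of cells although they were the shallower of the 2. In the NK gate 0 of 62 knockout cells had a Ccr6 UMI at that depth (up to 4.84%), and in knockout patrolling monocytes 1 of 388 did (0.258%), so the share of knockout microglia was above that of knockout patrolling monocytes.

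The excess of Ccr6 was even across cell depth. Cells of 1000 to under 5000 UMIs had 55.7 CPM in the knockout and 20.02 CPM in the wild-type library. Cells of 5000 to under 15000 UMIs had 52.1 and 19.2 CPM, and cells of 15000 UMIs or more had 49.7 and 20.7 CPM. Intervals of the 2 libraries did not overlap in any of these ranges. It was also as large in microglia without a UMI of another gate's genes, at 53.4 CPM in knockout and 20.5 CPM in wild-type cells, as in those with one, at 49.9 and 19.6 CPM. The UMIs were spread over many cells, with at most 12 in a single knockout cell and 8 in a single wild-type cell. Mixed cells showed the same order, with 44.3 CPM in knockout and 18.4 CPM in wild-type cells. Among the other myeloid gates Ccr6 had 1 UMI in patrolling and 1 in classical monocytes of the knockout library, and 2 UMIs in knockout and 1 UMI in wild-type border macrophages. The 15 knockout B cells had 3 UMIs in 2 cells, or 34.9 CPM (7.20 to 102), an interval that includes the levels of microglia in both libraries.

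**Figure D4:**
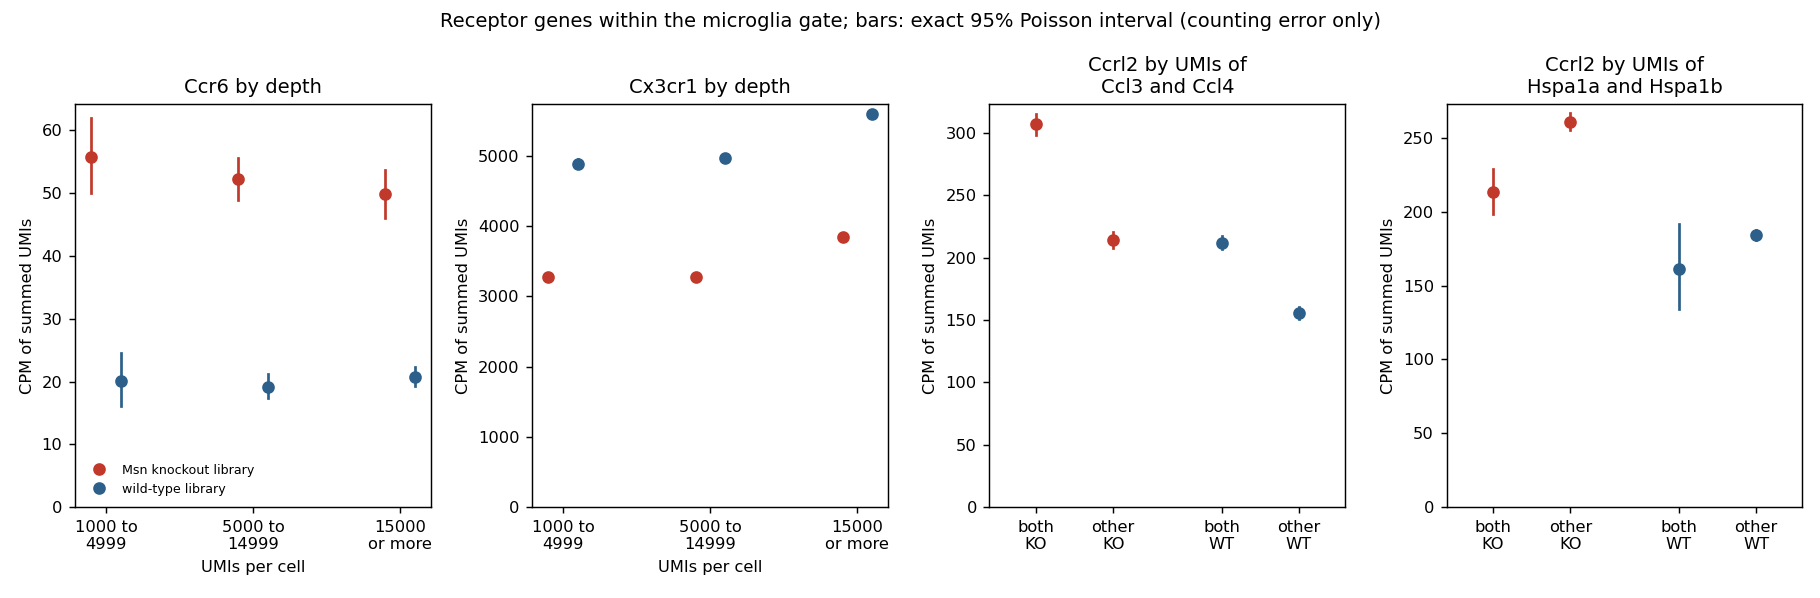
Levels within the microglia gate as CPM of summed UMIs with exact 95% Poisson intervals, Msn knockout in red and wild type in blue: Ccr6 and Cx3cr1 by UMIs per cell, then Ccrl2 in cells with thinned UMIs of both named genes and in the other cells. Ccr6 lies between 49.7 and 55.7 CPM in knockout and between 19.2 and 20.7 CPM in wild-type cells at every depth, and Ccrl2 is higher in Ccl3 and Ccl4 cells of both libraries (307 and 212 CPM).

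Ccrl2, the chemerin-binding atypical receptor, was detected in all the gates of myeloid cells and was the receptor called higher in the knockout library in every gate with a ratio. Microglia had 255 CPM (250 to 260) in the knockout and 184 CPM (180 to 187) in the wild-type library. The relative log2 ratio was 0.77 (0.73 to 0.81), but the CPM values themselves differed by 1.39-fold, under the limit. A Ccrl2 UMI was found in 30.6% of knockout and 26.4% of wild-type microglia at 2000 UMIs, and in 55.5% and 61.1% unthinned, so the order of the shares turned with depth. None of 8 knockout T cells had a Ccrl2 UMI at 2000 UMIs, which allows up to 37.5% of cells with a UMI.

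Patrolling monocytes had 315 CPM of Ccrl2 (291 to 341) in the knockout and 173 CPM (114 to 251) in the wild-type library, a relative log2 ratio of 1.19 (0.64 to 1.81). The thinned shares were 40.2% (35.3 to 45.3) of knockout and 26.9% (11.6 to 47.8) of wild-type cells, with intervals that overlapped. Border macrophages had 339 CPM (167 UMIs in 40 cells) in the knockout and 67.8 CPM (8 UMIs in 6 cells) in the wild-type library, a relative log2 ratio of 2.48 (1.47 to 3.71). Of the knockout UMIs, 61.1% lay in 10 cells, with at most 17 in a single cell. The thinned shares of border macrophages were 25.5% (17.1 to 35.6) in the knockout and 13.6% (2.91 to 34.9) in the wild-type library, with intervals that overlapped. Within the knockout library neutrophils (469 CPM), border macrophages and patrolling monocytes could not be set apart, and microglia lay below patrolling monocytes. Within the wild-type library microglia and patrolling monocytes could not be set apart (184 and 173 CPM). Classical monocytes had 171 CPM (140 to 207) in knockout and 226 CPM (157 to 314) in wild-type cells, with overlapping intervals, and here the knockout value was the smaller.

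Among microglia, Ccrl2 was higher in cells with UMIs of both Ccl3 and Ccl4, chemokine genes of activated microglia. In the knockout library it had 307 CPM in the 1595 such cells and 214 CPM in the 2745 others, a ratio of 1.43 (1.38 to 1.49). In the wild-type library it had 212 CPM in 2023 such cells and 156 CPM in 2874 others, a ratio of 1.36 (1.31 to 1.41). The increase was of like size in both genotypes, and the intervals of the 2 ratios overlapped. Ccrl2 also varied with depth. Knockout microglia of 1000 to under 5000, 5000 to under 15000 and 15000 UMIs or more had 189, 276 and 257 CPM. Wild-type microglia of these ranges had 157, 187 and 185 CPM, and the part of depth in the ratios was not tested. In cells with UMIs of the heat shock genes Hspa1a and Hspa1b, Ccrl2 was the lower: 213 CPM in 426 such cells and 261 CPM in others in the knockout library (ratio 0.817, 0.759 to 0.879). The wild-type ratio was 0.874 (0.727 to 1.04). In cells with UMIs of the interferon-induced genes Ifit2 and Ifit3, only 10 in the knockout and 15 in the wild-type library, Ccrl2 was 1.68-fold (1.10 to 2.46) and 1.44-fold (1.09 to 1.88) the level of other cells. For Ccr6 the ratio of Ccl3 and Ccl4 cells over the others was 0.963 (0.879 to 1.05) in the knockout and 0.926 (0.826 to 1.04) in the wild-type library, with intervals that include 1. For Cx3cr1 it was 1.017 and 1.007.

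The mixed cells held a large part of the receptor transcripts of the knockout library. They carried 33.9% of all Ccr6 UMIs there and 9.54% in the wild-type library, against 65.1% and 90.0% in the microglia gate. The microglia gate held 56.6% and 88.4% of the UMIs of all genes. For Cx3cr1 the mixed shares were 37.1% and 10.6%, and for Ccrl2 33.9% and 9.93%. The mixed shares of these genes were close to the mixed cells' part of all UMIs, which was 34.5% in the knockout and 10.2% in the wild-type library. For Cxcr4 the mixed shares were 39.7% and 25.7%, and patrolling monocytes held 26.4% and 24.8% of its UMIs. Patrolling monocytes held 3.08% and 0.229% of the UMIs of all genes. Of Ccr2 UMIs, classical monocytes held 25.5% in the knockout and 18.8% in the wild-type library, although they were 0.938% and 0.287% of cells.

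**Figure D5:**
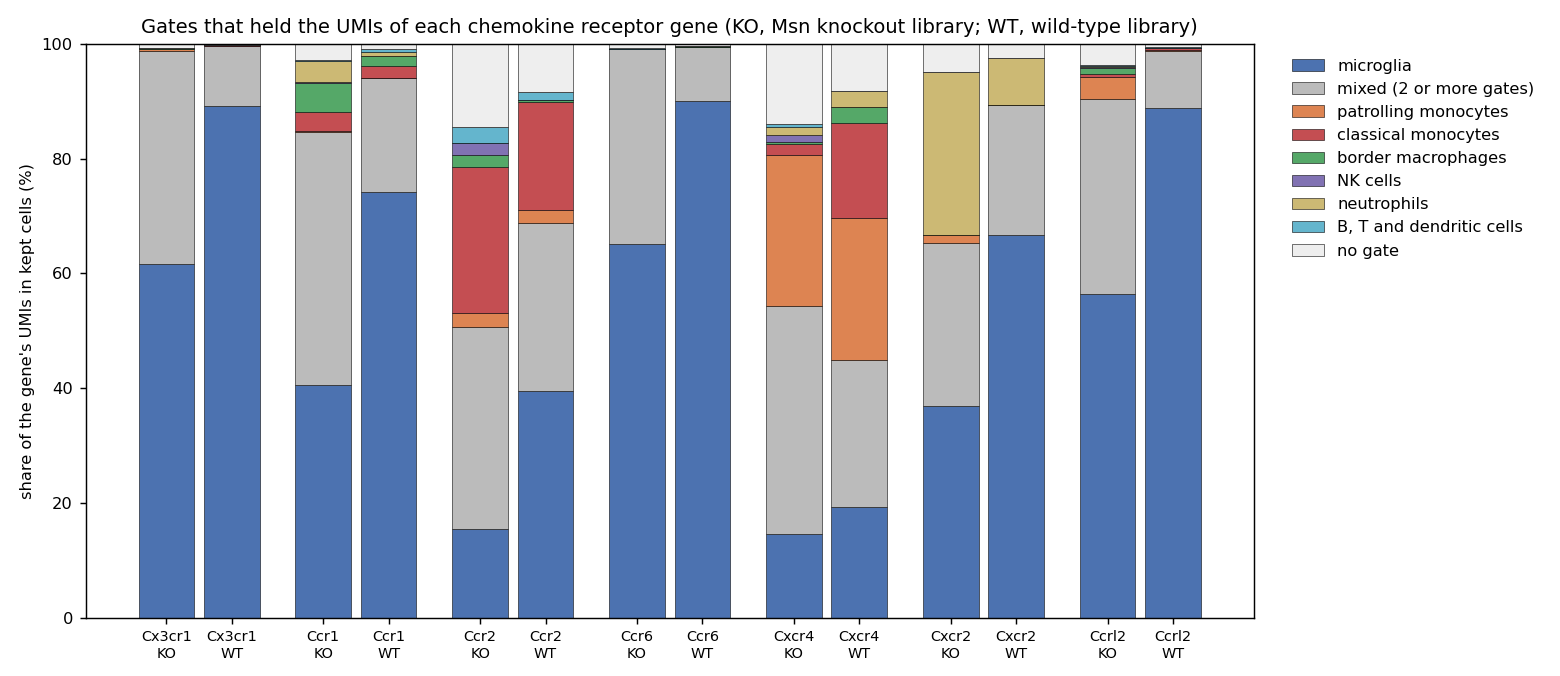
Share (%) of each receptor gene's UMIs in kept cells that lay in each gate, in the Msn knockout (KO, left of each pair) and wild-type (WT) libraries. Microglia hold 65.1% and 90.0% of Ccr6 UMIs and 56.6% and 88.4% of the UMIs of all genes. Classical monocytes hold 25.5% and 18.8% of Ccr2 UMIs and 0.922% and 0.227% of the UMIs of all genes.

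From the list of other chemokine receptor genes, Cmklr1, the signalling receptor of chemerin, had 99.99 CPM in knockout and 73.8 CPM in wild-type microglia and was called higher at 0.74. Rarres2, the gene of chemerin itself, had 2 UMIs in knockout and 6 UMIs in wild-type microglia. Gpr1, a further receptor of chemerin, had 0 UMIs in microglia of both libraries. The calls of Ccrl2 and Cmklr1 were lost on the CPM scale, where the log2 ratios were 0.47 for Ccrl2 and 0.44 for Cmklr1.

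Of 18 genes of ligands of the 7 receptors, 9 were measured in microglia, 6 of them were called higher and none lower, with a median relative log2 ratio of 0.66, while 15.3% of all measured genes were called higher and 12.6% lower. Summed border macrophage markers in this gate were also higher, at 29.8 CPM in knockout and 6.80 CPM in wild-type cells with all 7 genes detected in each, and their part in the ligand values was not tested. On the CPM scale 4 ligand genes were past the limit upward and 0 downward, against 424 higher and 2671 lower over all 8722 measured genes. Ccl5, a ligand of Ccr1, had 31.9 CPM in knockout and 2.66 CPM in wild-type microglia (3.88). Cxcl2, a ligand of Cxcr2, had 31.1 CPM in knockout and 12.5 CPM in wild-type microglia (1.61). At the other end stood Ccl9 (64.5 and 91.4 CPM, -0.21) and Ccl2 (110.3 and 134 CPM, 0.01). Ccl20, the ligand of Ccr6, had 0 UMIs in microglia of both libraries, and Cx3cl1 had 3 UMIs in knockout and 5 UMIs in wild-type microglia. Summed markers of NK cells, which are known to express Ccl5, were 16.5 CPM in knockout and 0.480 CPM in wild-type microglia, and their part in the Ccl5 value was not tested.

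Of 32 genes of signalling below the receptors, 28 were measured in microglia, with 6 called higher, 2 lower and 20 within the limit, and with a median of 0.12. The share called, 8 of 28, was close to the 27.9% of all measured genes. On the CPM scale, which lowers every log2 ratio of this gate by the same 0.30, there were 3 higher and 7 lower, against 424 higher and 2671 lower over all genes. Gnb2 and Gng5, a beta and a gamma subunit of G proteins, had the highest relative log2 ratios, 1.08 (539 CPM in knockout and 312 CPM in wild-type cells) and 0.89 (524 and 348 CPM). Dock2, an activator of Rac, and Pik3cg, the kinase driven by G protein subunits, had the lowest, -0.64 (111 and 214 CPM) and -0.62 (101 and 190 CPM). In border macrophages 9 of 12 measured ligand genes were called higher and none lower, and in patrolling monocytes 2 of 8 were higher and 3 lower, against the backgrounds given above for those gates.

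Across 9 sums of a gate in a library with at least 20 cells, the genes whose log2(CPM + 10) followed each receptor most closely were listed among 5786 candidates, as a description over 9 points of which several share a library. Cx3cr1 was followed by Tgfbr1 (Pearson's r 0.99), the receptor of TGF-beta, and by Fmnl3 and Epb41l2. Ccr6 was followed by Gp9 (0.99), Sft2d1 and Fam110a. Gp9 had 62.8 CPM in knockout and 37.6 CPM in wild-type microglia and at most 8.48 CPM in the other sums. Cxcr2 was followed by the neutrophil genes Stfa2l1, Cstdc4 and Ngp (each 1.00), all set by the single neutrophil sum. Cxcr4 was followed by Arhgef3 (0.95), 4833407H14Rik and Iqgap1, a scaffold of the actin cytoskeleton. Ccr1 was followed by Gng12 (0.96), Cpne2 and Atp6v1g1. Ccr2 was followed by Rps27l (0.90), Rbm17 and BC064078, and Ccrl2 by Lsm10 (0.91), Nfkbia and Pnpla2. Nfkbia, the NF-kB inhibitor that NF-kB itself induces, had 1879 CPM in knockout and 1211 CPM in wild-type microglia.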

How the data were processed

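Each library's deposited matrix gives UMI counts, whole numbers for each gene in each barcode. Cell Ranger made them, version 7.0.0 per the file headers and version 6.0 per the labels' protocols, with GRCm39 as the build. Seurat and a filter on cells under 500 genes are named in the labels' protocols, but the deposited counts still include such barcodes (1463 in the knockout and 207 in the wild-type library). Groups were taken from the genotype label. Of the 55357 gene identifiers, 54749 (98.9%) matched the GENCODE annotation of GRCm39.

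The members, gates and gene lists were chosen with earlier results of these data known. The genes named from the lists are the 2 highest and 2 lowest of those measured in microglia, and those named for likeness are the 3 with the highest correlation over sums with at least 20 cells, at 50 CPM or more somewhere. Rarres2, Ccl20 and Cx3cl1 were named as ligands after their values were seen. Cells with both gate genes at 1 UMI or more were gated. No doublet caller was run: cells that completed 2 or more gates were left out. Counts were summed per gate and library and divided by the total to give CPM. A ratio was computed only where both libraries had at least 20 cells in the gate. Intervals are exact Poisson for levels, exact conditional for ratios and exact binomial (Clopper-Pearson) for shares. The limit for 0 UMIs is 3 UMIs, and that for 0 cells with a UMI is 3 cells. For shares of cells with a UMI, cells were thinned to 2000 UMIs with a fixed seed, leaving out shallower cells. The ratio rule was tried on simulated counts of the microglia gate, with counting error only and with known changes larger than 1.5-fold. That trial does not cover changes near the limit, the smaller gates or a spread between libraries. A result from the list of other chemokine receptors and a setting that left out some cells of the smaller gates are not reported here. The other alternatives are given under the processing part of the closing section. Python 3.11.15 with numpy 2.4.6, scipy 1.17.1, pandas 2.3.3 and matplotlib 3.10.9 was used.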

Additional observations from a re-analysis of the deposited data

Results flagged for a closer look

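The ratios of Ccr2 had opposite signs in 2 gates of the same comparison. Knockout over wild type, the relative log2 ratio was -2.53 in patrolling monocytes (19.5 CPM in knockout and 141 CPM in wild-type cells) and 1.18 in border macrophages (69.0 and 33.9 CPM). The difference between the gates was not tested, since each rests on 1 library per genotype. The wild-type values come from 22 UMIs in 5 of 27 patrolling monocytes and from 4 UMIs in 2 of 25 border macrophages. The border macrophage ratio has an interval of -0.31 to 3.14, which includes 0, and it fell within the 1.5-fold limit with gates called on thinned cells (0.36) and with mixed cells counted in (0.39).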

How the results depend on the processing

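No paired analysis was possible because each genotype had 1 library and the labels carry no replicate numbers, and for the same reason no replicate could be left out. Microglial Ccr6 was called higher in all 13 alternatives (1.36 to 1.79), and border macrophage Ccrl2 in all 12 (0.92 to 2.65). Patrolling monocyte Ccr2 was called lower in all 11 that could be run (-2.85 to -1.56). These alternatives draw on the same wild-type library, in which 5 of 27 patrolling monocytes had a Ccr2 UMI in the reported setting, so they are not independent. Microglial Ccrl2 held in 12 of 13 and was lost on the CPM scale (0.47). Patrolling monocyte Ccrl2 was lost with 2 UMIs of each gate gene (0.51), and Cx3cr1 there with mixed cells counted in the other gate (-0.12). Border macrophage Cx3cr1 was past the limit in 5 of 12 (-0.77 to -0.25), and Ccr2 there in 10 of 12 (0.36 to 1.70). Microglial Ccr1, within the limit in the reported value, was past it in 4 of 12 (0.18 to 0.96). Border macrophage Cxcr4 reversed with 2 UMIs of each gate gene (0.49) and with gates called on thinned cells (0.75); the cause was not tested.

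Members lower in border macrophages (2) became 0 with at least 1000 genes per cell, gates called on thinned cells, mixed cells counted in, median-of-ratios scaling or genes at 50 CPM or more. They became 1 with 2 UMIs of each gate gene or with no filter on level. Members higher in patrolling monocytes (1) became 0 with 2 UMIs of each gate gene, and 2 higher and 1 lower with mixed cells counted in. Microglial members (2 higher, 0 lower) became 1 higher and 1 lower (Cx3cr1, -0.61) on the CPM scale and 5 higher with no filter on level. They became 3 higher with gates called on thinned cells, thinned UMIs, median-of-ratios scaling or microglia without any UMI of another gate's genes. The 5 include Cxcr4 and Cxcr2, which were under the 10 CPM limit in both libraries. Calls over all genes moved under some of these settings too, as given next, so these counts of members are no stronger result.

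Over all genes, microglial calls (1334 higher, 1097 lower of 8722 measured genes) became 424 and 2671 on the CPM scale. They became 583 and 539 of 3771 genes at 50 CPM, and 4692 and 4703 of 20810 with no filter on level. Lower calls became 649 under median-of-ratios scaling. Border macrophage calls (2521 and 2739 of 8649) became 1606 and 1198 of 8845 with mixed cells and 998 and 1088 of 3964 at 50 CPM. Patrolling monocyte calls (2060 and 2097 of 7926) became 1340 higher on the CPM scale and 778 and 809 of 3595 at 50 CPM. Counts from unlike numbers of measured genes cannot be compared directly. The share of cells with a UMI in microglia moved with thinning in 26 of 28 values. Gates on thinned cells left under 20 wild-type patrolling monocytes, and the alternative without any UMI of another gate's genes, chosen after seeing the data, could be run only in microglia. The number of cells limits every wild-type value of the gates other than microglia, which rest on 3 to 27 cells.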
